A study of Arabidopsis thaliana with 8 samples.

Results

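Class III peroxidases are secreted heme enzymes of plants that use hydrogen peroxide to oxidise phenolic compounds in the cell wall. They couple monolignols into lignin, cross-link wall polymers and can also generate reactive oxygen species, so that members of the family are known both for stiffening and for loosening walls and for the oxidative burst of defence. The genes of the family are numerous, and many are transcribed mainly in roots. PRXR1 (AT4G21960, also numbered PRX42) is the member that stood highest in wild-type shoot apices here, and it lies in the same family as 36 further loci that were listed by their IDs to ask whether any relative made up for, or followed, the fall of PRXR1 when PECT1 was targeted. The 37 loci were taken from 27655 loci in the deposited expression table, and all 37 were found there.

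RNA was sequenced from shoot apices of Arabidopsis thaliana in 4 groups of 2 libraries each, 8 in all. The groups were the pFD::amiR-PECT1 knockdown line at 10 days, wild type at 10 days, the knockdown line at 16 days and wild type at 16 days. In the knockdown line the promoter of FD, a bZIP transcription factor gene of the shoot apex, drives an artificial microRNA designed against PECT1, the gene of an enzyme of phosphatidylethanolamine synthesis. The microRNA is thus made only where that promoter is active, while the libraries hold RNA of all cells in the sample. All plants grew in short days at 23 °C, and all groups were sampled at ZT 8 (8 h after lights on). The labels do not say how many lines the knockdown stands for, nor whether separate cultures gave the 2 libraries of each group, so p-values measure the spread between these libraries, which may be technical in part. In bulk RNA, fewer cells of a type and less RNA per cell cannot be told apart.

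Levels are in RPKM, a read count scaled by transcript length in kilobases and by the library's depth in M (mega) reads, which allows a level to be compared between genes. The estimated depth was 15.5 to 18.2 M reads per library, and 16180 to 16883 loci reached 1 RPKM. PECT1 itself, the targeted gene, had 35.3, 37.1, 34.4 and 37.0 RPKM in the 4 knockdown libraries (day 10, then day 16), against 40.7, 39.2, 40.4 and 41.3 RPKM in the 4 wild-type libraries. The groups did not overlap, but PECT1 did not pass the test at day 10 (limma adjusted p = 0.860) or day 16 (0.842). Replicate 1 of the knockdown line at day 16 stood apart, with 85.4% of its estimated reads in nuclear genes, against 93.0% to 95.7% in the other libraries. Of 12 root marker genes, 6 to 9 were at 0 in each library, and their sum was 2.62 to 4.38 RPKM in the knockdown line and 2.74 to 4.45 RPKM in wild type. The 10 shoot apex markers summed to 36.6 to 62.3 RPKM in the knockdown line and 35.6 to 53.8 RPKM in wild type. The 10 leaf mesophyll markers summed to 33238 to 46228 RPKM and 34105 to 46017 RPKM. At each age 9 of these 10 were lower in the knockdown line by mean log2(RPKM + 1), and 0 passed. Their median difference was -0.30 at day 10 and -0.16 at day 16, against -0.016 and -0.113 over all genes tested.

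PRXR1 lies on the minus strand of chromosome 4, at 11646109 to 11648644 in RefSeq's annotation of the TAIR10.1 assembly, with 4 exons, 1 transcript of 1829 exon bases, a predicted protein of 330 residues and no gene overlapping it. Aligned end to end with the other 36 members, its protein was nearest to that of PRX21 (AT2G37130), with 53.5% identity over 325 aligned residues. PRX57 followed with 37.9% and PRX38 with 37.2%. The sequences below set PRXR1 beside these 3 relatives in the 60 coding bases where PRXR1 shares most bases with PRX21, aligned without gaps. For PRX57 and PRX38 the best match to those bases is given, so the likeness shown is the highest of many windows. The sequences run 5′ to 3′ around the codons of the distal histidine that works in the heme pocket. Capitals mark bases that differ from PRXR1.
PRXR1: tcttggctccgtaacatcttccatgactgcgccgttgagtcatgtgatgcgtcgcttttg
PRX21: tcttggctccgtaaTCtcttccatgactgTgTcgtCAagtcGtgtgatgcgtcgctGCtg
PRX57: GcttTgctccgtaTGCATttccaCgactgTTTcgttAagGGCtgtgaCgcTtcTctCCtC
PRX38: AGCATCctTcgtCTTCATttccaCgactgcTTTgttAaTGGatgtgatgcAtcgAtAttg
The PRXR1 stretch is coding bases 190 to 249, which run across the junction of exons 1 and 2 (chr4:11647943-11648123, minus strand, intron included). PRX21 shares 51 of the 60 bases, PRX57 39 and PRX38 36. The PRX21 stretch runs across exons 2 and 3 (chr2:15599477-15599641, minus strand), that of PRX57 across exons 1 and 2 (chr5:5889336-5889933, minus strand) and that of PRX38 likewise across exons 1 and 2 (chr4:5604321-5607230, plus strand). Over the whole transcripts, the longest run that PRXR1 shared with PRX21 was 18 bases, and PRXR1 shared no run of 50 bases with any member. Reads of that length that match without a mismatch therefore separate PRXR1 from the other 36 members. Family genes outside the chosen set were not compared in this way. Read length, the mismatches allowed and how shared reads were counted are not known from the sources used here.

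PRXR1 fell at both ages. At day 10 it had 40.8 and 40.5 RPKM in the knockdown line, against 816 and 891 RPKM in wild type. At day 16 it had 59.7 and 93.4 RPKM in the knockdown line, against 1420.2 and 1204 RPKM in wild type. The groups lay far apart at each age, and PRXR1 still gave about 1270 estimated reads in its lowest library. Of all loci in a library, PRXR1 ranked 1148 to 2541 by RPKM in the knockdown line and 33 to 95 in wild type.

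In limma on log2(RPKM + 1), the difference of PRXR1 was -4.36 ± 0.193 at day 10 (SE, adjusted p = 7.93e-06, lower in 2 of 2 libraries) and -4.11 ± 0.193 at day 16 (adjusted p = 1.38e-05, lower in 2 of 2). The knockdown level was 0.0476 of the wild-type level at day 10 and 0.0583 of it at day 16. The effect of genotype did not pass a test of its difference between the ages, which was 0.25 (95% interval -0.37 to 0.86, limma adjusted p = 1.00). Among all 17467 genes tested, 0.0515% were called lower at day 10 and 0.0916% at day 16, with PRXR1 the only one of the 13 tested members in either count. The authors' deposited tables of lower genes hold 1.18% of all loci at day 10 and 0.759% at day 16. In the authors' deposited tables PRXR1 has a fold of -20.65 at day 10 and -15.81 at day 16, the minus sign marking a fall.

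**Figure D1:**
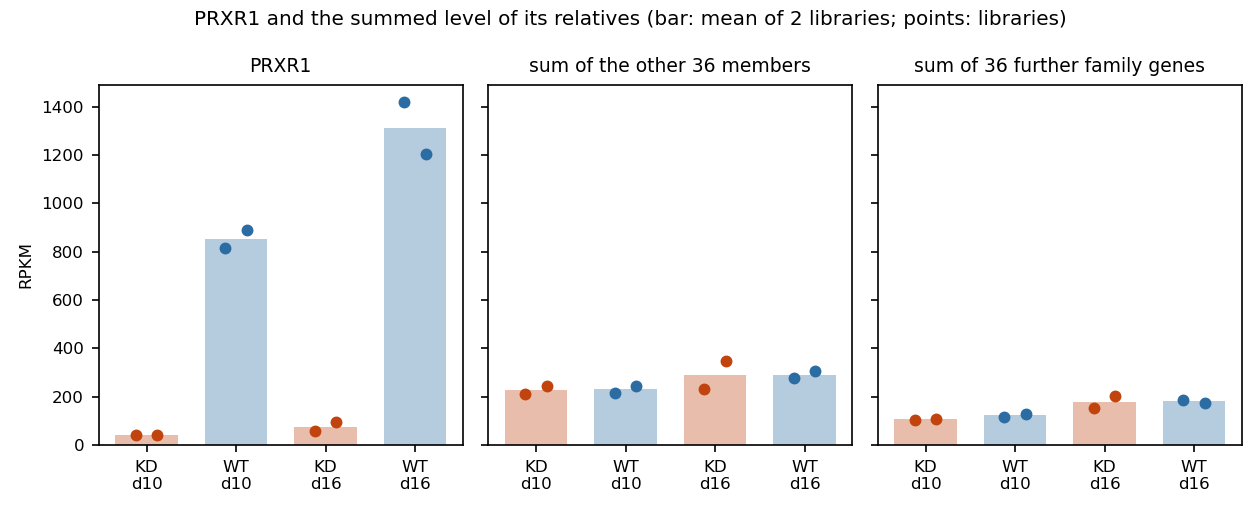
RPKM of PRXR1, the summed RPKM of the other 36 members and that of 36 further class III peroxidase genes, with bars for the mean of 2 libraries and points for the libraries of the knockdown line (KD) and wild type (WT) at days 10 and 16. PRXR1 stood at 93.4 RPKM or less in the knockdown line and at 816 RPKM or more in wild type. The sum of the other 36 members overlapped between the genotypes at both ages. The sum of the 36 further genes lay lower in the knockdown line without overlap at day 10 and overlapped at day 16.

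The relatives together did not make up the lost transcript. Summed over the other 36 members, the level at day 10 was 211 and 245 RPKM in the knockdown line, against 215 and 245 RPKM in wild type. At day 16 the sum was 230 and 348 RPKM in the knockdown line, against 276 and 304 RPKM in wild type. The knockdown mean differed from the wild-type mean by -2.01 RPKM at day 10 and -0.910 RPKM at day 16, where PRXR1 differed by -813 and -1236 RPKM. The sum thus overlapped between genotypes at both ages, and no test was made of it. At day 10 the 36 family genes outside the chosen set summed to 104 and 109 RPKM in knockdown apices. The wild-type sums lay higher without overlap, at 116 and 129 RPKM. At day 16 these genes summed to 154 and 201 RPKM in the knockdown line, against 186 and 174 RPKM in wild type, which overlap. As a share of the summed RPKM of all 73 family genes, PRXR1 took 10.3% to 14.5% in the knockdown libraries and 70.4% to 75.4% in the wild-type libraries.

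The even sum at day 10 rests on PRX12, the highest relative. Without PRX12, the remaining 35 members summed to 86.4 and 121 RPKM in the knockdown line and 92.3 and 75.6 RPKM in wild type at day 10, a log2 ratio of 0.31 in place of -0.01. At day 16 the log2 ratio of the 36 was -0.00, and it was -0.33 without replicate 2 of the knockdown line, whose sum was the higher of the pair. That library was also the higher of the pair for PRX33, with 89.2 RPKM against 25.9 RPKM in replicate 1.

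Few relatives were transcribed at a level that passed the filter for testing. A gene was tested if it had at least 1 RPKM in at least 2 libraries, which 13 of the 37 members did, PRXR1 among them. Of the 24 members not tested, 6 (PRX5, PRX7, PRX9, PRX10, PRX11 and PRX15) were listed at 0 in all 8 libraries. The other 18 had at most 1.21 RPKM, a value of PRX3 in a wild-type library of day 10, and the next highest was 0.760 RPKM for PRX39 in a wild-type library of day 16. Together the untested members summed to 1.59 to 1.96 RPKM in the knockdown libraries and 2.09 to 2.76 RPKM in the wild-type libraries. All 8 members grouped as root-associated were in this set, among them PRX57, the second nearest relative of PRXR1 by sequence, with 0.450 and 0.120 RPKM in knockdown apices at day 10 and 0 in all 4 wild-type libraries. PRX38, the third nearest, was above 0 in a single library, with 0.220 RPKM in knockdown apices at day 16.

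No relative passed the test in either direction. Over all genes, 0.0229% were called higher at day 10 and as many, 0.0229%, at day 16, and 0 of the 12 tested relatives were among them. Of the 12 tested relatives, 7 had a positive and 5 a negative difference at day 10, with a median of 0.12 against -0.02 over all genes tested and limma adjusted p of 0.686 to 0.982. At day 16 the split was again 7 and 5, with a median of 0.16 against -0.11 over all genes and limma adjusted p of 0.811 to 0.997. With median-of-ratios scaling or quantile normalization, which shift the centre of the libraries, the split at day 16 was 8 and 4. In the mean of both ages, 0.0687% of all genes were called higher and 0.177% lower, PRXR1 being the only member called (-4.23 ± 0.137, adjusted p = 3.66e-07), and the 12 relatives had limma adjusted p of 0.340 to 0.990. Without an adjustment for the number of genes, 1 relative (PRX47) had p under 0.05 at day 10 and none at day 16, where 6.66% and 6.37% of all genes did. In the mean of both ages it was again PRX47 alone (limma unadjusted p = 0.0216), against 12% of all genes.

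**Figure D2:**
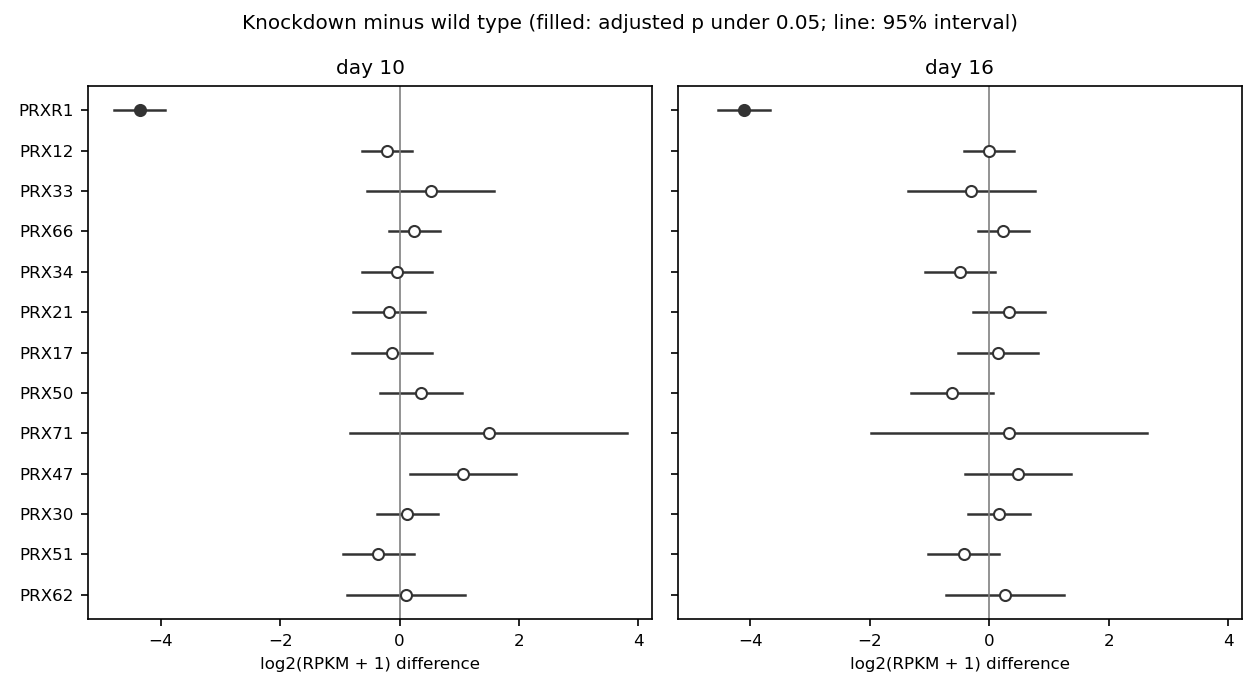
Difference in log2(RPKM + 1), knockdown line minus wild type, for the 13 tested members in order of mean level, at day 10 (left) and day 16 (right), with 95% intervals of limma and filled points for adjusted p under 0.05. The PRXR1 points lie at -4.36 and -4.11, and all others lie between -0.63 and 1.49.

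The 95% intervals describe each tested relative singly and were not adjusted for the number of relatives or ages. PRX12 (AT1G71695), the highest of them, had 125 and 123 RPKM in knockdown apices at day 10, against 123 and 169 RPKM in wild type. By day 16 its level was 98.3 and 125 RPKM in the knockdown line, against 123 and 101 RPKM in wild type. The groups overlapped at both ages. Its difference was -0.21 at day 10 (95% interval -0.64 to 0.21) and -0.01 at day 16 (-0.43 to 0.42). These upper bounds stand for a rise of 22.5 RPKM at day 10 and 37.7 RPKM at day 16. The rise is counted from the wild-type mean taken on the log2(RPKM + 1) scale. Of all 12 relatives the upper bound of PRX33 allows most, 24.4 RPKM at day 10 and 42.3 RPKM at day 16.

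PRX21, nearest to PRXR1 in sequence, did not differ between genotypes beyond the spread. It had 3.31 and 1.90 RPKM in knockdown apices at day 10, against 3.12 and 2.86 RPKM in wild type. At day 16 it had 29.0 and 20.3 RPKM in the knockdown line, against 16.3 and 22.4 RPKM in wild type. Both pairs overlapped. The difference was -0.17 at day 10 (95% interval -0.78 to 0.43) and 0.33 at day 16 (-0.27 to 0.93), and the upper bound at day 16 allows a rise of 18.3 RPKM.

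PRX33 and PRX34 are neighbouring genes known for the apoplastic oxidative burst that follows microbial elicitors. PRX33 (AT3G49110) had 14.1 and 19.3 RPKM in knockdown apices at day 10, against 13.4 and 9.28 RPKM in wild type. By day 16 its level was 25.9 and 89.2 RPKM in the knockdown line, against 46.1 and 77.0 RPKM in wild type. PRX33 lay higher without overlap at day 10, and at day 16 its knockdown values enclosed those of wild type. PRX34 (AT3G49120) had 6.96 and 8.99 RPKM in knockdown apices at day 10, against 7.18 and 9.25 RPKM in wild type, then 10.5 and 17.7 RPKM at day 16, against 17.9 and 21.5 RPKM. The difference of PRX34 at day 16 was -0.50 (95% interval -1.08 to 0.09, limma adjusted p = 0.811), without overlap between the groups.

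Reads of this pair, and of PRX50 and PRX51, are uncertain. The proteins of PRX33 and PRX34 were 92.9% identical and those of PRX50 and PRX51 89.4%, and the transcripts shared 99 and 83 stretches of 50 bases. The longest runs that the coding sequences of each pair have in common are shown, since reads within them carry nothing to tell the genes apart.
PRX33 and PRX34: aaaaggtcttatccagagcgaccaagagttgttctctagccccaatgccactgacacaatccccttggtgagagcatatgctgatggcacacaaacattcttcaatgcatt
PRX50 and PRX51: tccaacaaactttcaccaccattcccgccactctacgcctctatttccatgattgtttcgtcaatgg
The first run has 111 bases and lies in exon 4 of both genes, at chr3:18202639-18202749 in PRX33 and chr3:18209789-18209899 in PRX34, plus strand. The second has 67 bases across exons 1 and 2, at chr4:17631855-17632003 in PRX50 and chr4:17634937-17635089 in PRX51, plus strand and intron included.

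PRX50 and PRX51 leaned the same way as PRXR1 at day 16 without passing. PRX50 (AT4G37520) had 4.21 and 5.68 RPKM in knockdown apices at day 10, against 5.48 and 2.28 RPKM in wild type, which overlap. The day 16 levels were 9.96 and 11.1 RPKM in the knockdown line, against 18.6 and 15.1 RPKM in wild type. PRX51 (AT4G37530) had 1.64 and 1.65 RPKM in knockdown apices at day 10, against 2.85 and 1.97 RPKM in wild type, then 4.44 and 2.95 RPKM at day 16, against 6.0 and 4.57 RPKM. The day 16 difference was -0.63 for PRX50 (95% interval -1.31 to 0.06, limma adjusted p = 0.811) and -0.43 for PRX51 (-1.02 to 0.16, 0.824).

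PRXR1 and PRX51 were the tested members whose knockdown libraries lay below both wild-type libraries at both ages, an order that 9.46% of all tested genes had. For PRX51 the order at day 16 became an overlap with median-of-ratios scaling, and with quantile normalization it did so at both ages. At day 10 alone, 3 of 13 tested members lay higher without overlap (PRX33, PRX47 and PRX71), against 19.9% of all genes, and 2 lay lower, against 21% of all genes. At day 16, 1 member lay higher (PRX66, and with median-of-ratios scaling PRX17 also), against 8.39%, and 4 lay lower (PRXR1, PRX34, PRX50 and PRX51), against 25.7%. No member lay higher without overlap at both ages, where 3.89% of all genes did. PRX31 (AT3G28200), a family gene outside the chosen set, had that order without passing. It had 38.3 and 43.4 RPKM in knockdown apices at day 10, against 37.0 and 34.45 RPKM in wild type (limma adjusted p = 0.843). At day 16 it had 35.3 and 44.45 RPKM in the knockdown line, against 29.4 and 34.3 RPKM in wild type (limma adjusted p = 0.812).

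Members known from lignin and xylem formed the next group. PRX66 (AT5G51890), known for the lignification of vessel elements, had 37.0 and 51.5 RPKM in knockdown apices at day 10, against 39.1 and 34.4 RPKM in wild type. At day 16 it had 29.5 and 35.3 RPKM in the knockdown line, against 28.2 and 26.3 RPKM in wild type. Its difference was 0.25 at day 10 (95% interval -0.18 to 0.68) and 0.24 at day 16 (-0.19 to 0.67). PRX17 (AT2G22420), known for the formation of lignified tissue, had 6.67 and 9.16 RPKM in knockdown apices at day 10, against 11.7 and 6.31 RPKM in wild type, then 10.6 and 15.4 RPKM at day 16, against 10.2 and 12.9 RPKM. Its groups overlapped at both ages. At day 10 the 12 vasculature markers summed to 152 to 157 RPKM in the knockdown line and 128 to 147 RPKM in wild type, without overlap. XCP2, the highest of them, held 62.2 and 60.1 RPKM of the knockdown sums and 55.7 and 43.85 RPKM of the wild-type sums. Of all single genes tested, 19.9% lay higher without overlap at day 10. The day 16 sums were 119 to 170 RPKM and 126 to 128 RPKM, which overlap, and no marker was at 0. Of the 11 tested, 7 had a positive difference at day 10 (median 0.149, against -0.016 over all genes). At day 16 it was 8 (median 0.055, against -0.113), and 0 passed at either age. The part of these markers in the values of PRX66 and PRX47 was not tested.

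PRX47 and PRX71 were the relatives that the authors' deposited tables list. PRX47 (AT4G33420), another gene of differentiating vessels, had 3.77 and 8.23 RPKM in knockdown apices at day 10, against 2.51 and 1.89 RPKM in wild type. The day 16 levels were 3.87 and 7.73 RPKM in the knockdown line, against 2.61 and 5.10 RPKM in wild type. Its difference at day 10 was 1.06 ± 0.397 (SE, limma unadjusted p = 0.0241, adjusted p = 0.686). PRX71 (AT5G64120), known to respond to wall damage and to restrict growth, had 1.36 and 9.94 RPKM in knockdown apices at day 10, against 0.860 and 0.760 RPKM in wild type. At day 16 it had 1.40 and 16.2 RPKM in the knockdown line, against 1.01 and 11.9 RPKM in wild type. PRX71 was thus high in 3 libraries, all of them replicate 2, and below 1.5 RPKM in the other 5, wild-type replicate 2 of day 10 among them. Its difference at day 10 was 1.49 with a 95% interval of -0.83 to 3.81 (limma adjusted p = 0.786). The authors' deposited table of higher genes at day 10 lists PRX71 with a fold of 6.80 (p = 0.00122) and PRX47 with 2.72 (p = 0.00202), and it covers 1.14% of all loci. At day 16 the authors' deposited table of higher genes, with 0.749% of all loci, lists 0 members.

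The remaining tested members were low. PRX30 (AT3G21770) had 2.75 to 4.55 RPKM in the knockdown libraries and 2.32 to 4.01 RPKM in the wild-type libraries. PRX62 (AT5G39580), known for root hair growth at low temperature, had 0.10 to 2.41 RPKM in the knockdown libraries and 0.220 to 1.48 RPKM in the wild-type libraries. Both overlapped between genotypes at each age. PRX66 and PRX47 each overlap a gene on the opposite strand, so part of their reads is uncertain where strand was not used in counting, which the sources used here do not state.

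**Figure D3:**
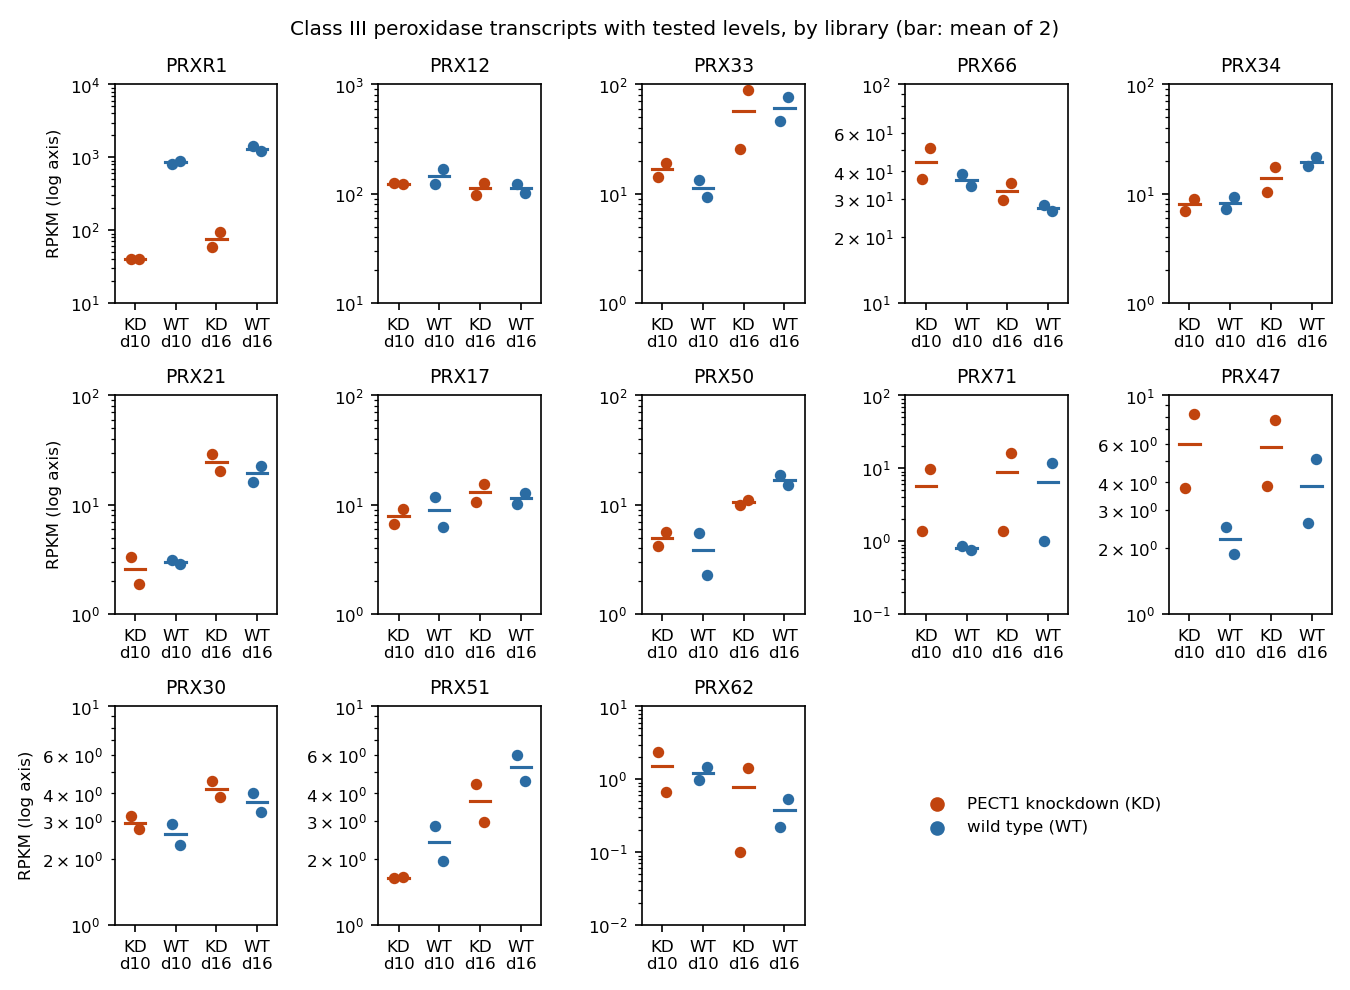
RPKM of the 13 tested members in each library (points, log axis) with the mean of each pair (bar), for the knockdown line (KD) and wild type (WT) at days 10 and 16. PRXR1 is set apart by genotype, PRX21 and PRX33 by age more than by genotype, and the 2 libraries of a group lie far apart for PRX71, as at 1.36 and 9.94 RPKM in knockdown apices at day 10.

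Age moved a different member. PRX21 rose with age in both genotypes, with a level at day 16 that was 9.46 times that of day 10 in the knockdown line and 6.46 times in wild type. Its difference, day 16 minus day 10, was 2.84 ± 0.270 in the knockdown line (SE, limma adjusted p = 0.00294) and 2.33 ± 0.270 in wild type (0.0107), where 0.235% and 0.195% of all genes were called higher. The rise in the knockdown line passed under each of 18 alternative settings. The rise in wild type did not pass in 7 of 18, with adjusted p between 0.0520 and 0.129, among them the fits without replicate 1 (0.0762) or replicate 2 (0.106) of day 10 or replicate 2 of day 16 (0.129).

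PRX50 rose with age in wild type, by 1.95 ± 0.309 (SE, limma adjusted p = 0.0465), and 12 of 18 alternatives ended that call. Among them were the fits without replicate 2 of wild type at day 10 (0.269), replicate 1 (0.281) or 2 (0.264) of wild type at day 16, and replicate 1 (0.111) or 2 (0.107) of the knockdown line at day 16. In the knockdown line its difference was 0.97 (adjusted p = 0.350). The test of the difference between these effects of age gave -0.98 (95% interval -1.96 to -0.01, limma unadjusted p = 0.0489, adjusted p = 1.00). By limma, 0% of all genes passed that test after adjustment, and 1.65% had an unadjusted p under 0.05. PRX33 had a difference of 1.49 in the knockdown line (adjusted p = 0.350) and 2.31 in wild type (0.154), and PRX34 one of 0.71 (0.446) and 1.17 (0.197), none past the threshold. PRX33 did pass in wild type when replicate 1 (0.0301) or replicate 2 (0.030) of the knockdown line at day 16 was left out, fits in which PRX50 did not.

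PRXR1 itself lay higher at day 16 than at day 10 in both genotypes, without passing. The ratio of its mean levels was 1.88 in the knockdown line and 1.54 in wild type, and the log2 difference was 0.86 (95% interval 0.43 to 1.29, limma adjusted p = 0.143) and 0.62 (0.18 to 1.05, 0.472). In the knockdown line PRXR1 passed (1.18, adjusted p = 0.0422) without replicate 1 of day 16, the library with the lower share of nuclear reads. Over the 12 relatives, 8 had a positive difference with age in the knockdown line (median 0.52, against -0.01 over all genes) and 9 in wild type (median 0.72, against 0.10 over all genes). PRX12, PRX62 and PRX66 were on the negative side in both genotypes, at -0.16, -0.54 and -0.42 in the knockdown line and -0.37, -0.69 and -0.42 in wild type, none past the threshold. The sums of the leaf mesophyll and shoot apex markers also lay apart between the ages in each genotype, while few of these genes passed. The 10 leaf mesophyll markers summed to 33238 to 34027 RPKM at day 16 and 36179 to 46228 RPKM at day 10 in the knockdown line, and to 34105 to 40375 RPKM at day 16 and 44583 to 46017 RPKM at day 10 in wild type. Their difference with age was negative for 8 of 10 in the knockdown line (median -0.18) and 10 of 10 in wild type (median -0.41). Only 1 of them, RBCS2B, was called lower in the knockdown line (limma adjusted p = 0.0388), where 6 of 17467 genes were. In wild type 0 of them were called. The 10 shoot apex markers summed to 50.6 to 62.3 RPKM at day 16 and 36.6 to 48.5 RPKM at day 10 in the knockdown line, and to 50.9 to 53.8 RPKM at day 16 and 35.6 to 41.7 RPKM at day 10 in wild type. Of the 8 tested, 7 had a positive difference with age in the knockdown line and 8 in wild type. In neither genotype was any called, 0 of 8. The largest difference was that of STM, 1.09 in the knockdown line (limma adjusted p = 0.0780) and 0.87 in wild type (0.215). Of 11 tested vasculature markers, 8 had a negative difference in the knockdown line (median -0.17) and 7 in wild type (median -0.18), with 0 called. The part of these lists in the values of PRX21, PRX50 and PRXR1 was not tested.

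**Figure D4:**
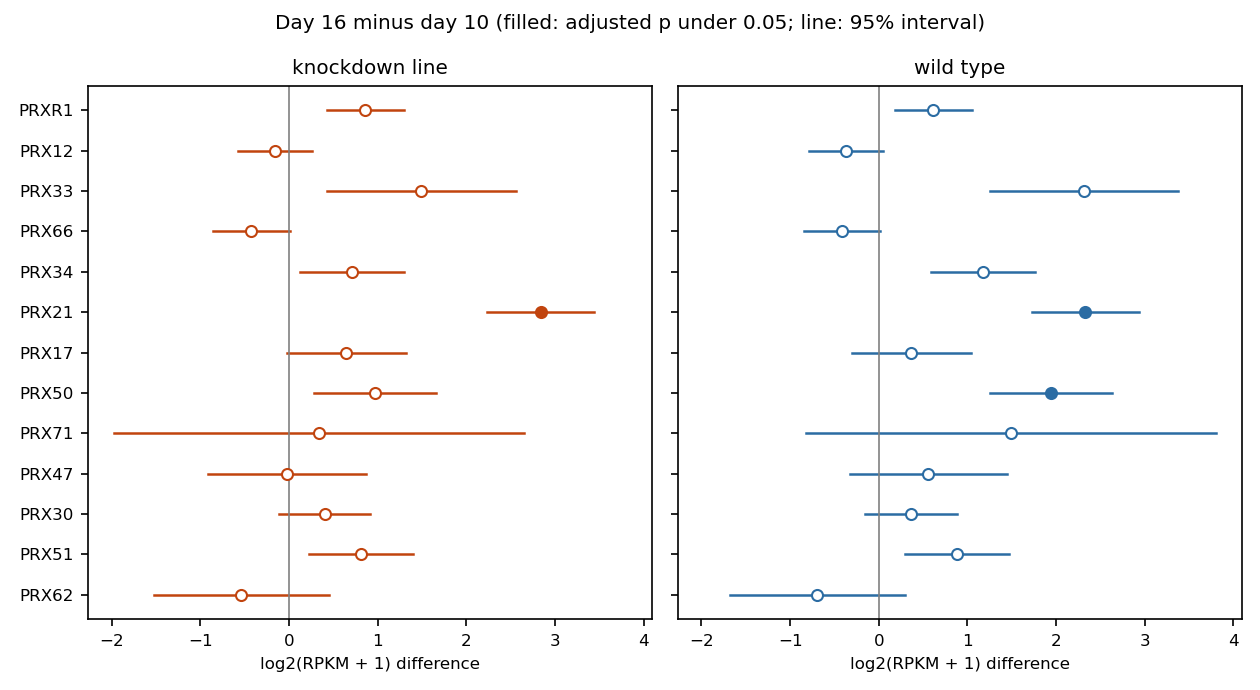
Difference in log2(RPKM + 1), day 16 minus day 10, for the 13 tested members in the knockdown line (left) and wild type (right), with 95% intervals of limma and filled points for adjusted p under 0.05. PRX21 is filled in both genotypes (2.84 and 2.33) and PRX50 only in wild type (1.95), a difference between genotypes that did not pass its own test.

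Genes around PRXR1 on chromosome 4 were examined for a change that follows its position. Of the 5 genes on either side, 7 could be tested, and none was called at either age (limma adjusted p of 0.721 to 0.981 at day 10 and 0.914 to 0.996 at day 16). AT4G22000 had 75.4 and 64.6 RPKM in knockdown apices at day 10, against 51.5 and 48.8 RPKM in wild type, and overlapped at day 16. APG8A, an autophagy gene, had 22.1 and 19.6 RPKM in knockdown apices at day 10, against 18.4 and 10.7 RPKM in wild type. APR3, which encodes a reductase of sulfate assimilation, reached 88.1 RPKM in replicate 2 of wild type at day 10 and 5.55 to 17.4 RPKM in the other 7 libraries.

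**Figure D5:**
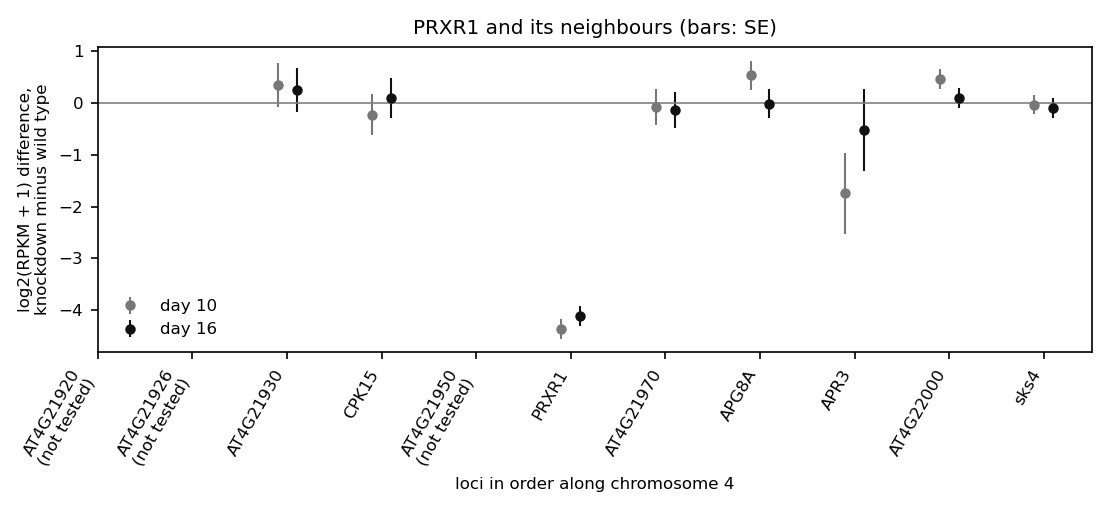
Difference in log2(RPKM + 1), knockdown line minus wild type, of PRXR1 and the 5 genes on either side of it in chromosomal order, with SE bars, at day 10 (grey) and day 16 (black). PRXR1 lies below -4 at both ages, while its tested neighbours lie between -1.74 and 0.54.

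Other genes of peroxide metabolism and lignin synthesis were compared as lists. None of the 10 tested genes among the 36 further class III peroxidases passed between genotypes. At day 10, 8 of the 10 had a negative difference (median -0.31, against -0.016 over all genes tested). At day 16, 7 of the 10 did (median -0.24, against -0.113). PRX32 had the smallest p among them in the mean of both ages. It had 7.52 and 7.01 RPKM in knockdown apices at day 10, against 10.6 and 13.9 RPKM in wild type (limma adjusted p = 0.673). At day 16 it had 8.22 and 9.65 RPKM in the knockdown line, against 14.4 and 9.82 RPKM in wild type (limma adjusted p = 0.821). PRX32 and PRX16, a gene of 0.29 to 1.73 RPKM, lay lower without overlap at both ages, as 9.46% of all tested genes did. PRX31 lay higher without overlap at both ages. With age, 1 of the 10 was called higher in the knockdown line and 2 in wild type, against 0.235% and 0.195% of all genes. PRX70, a tandem neighbour of PRX71, rose by 1.61 in the knockdown line (limma adjusted p = 0.00662) and by 1.34 in wild type (0.0237). The rise in the knockdown line did not pass without replicate 2 of the knockdown line at day 10 (0.0563). The rise in wild type did not pass in 7 of 18 alternatives, among them each fit without a wild-type library (0.129 to 0.172). PRX67 rose by 1.71 in wild type (limma adjusted p = 0.0340), a call that ended in 8 of 18 alternatives, each fit without a wild-type library among them (0.198 to 0.270). In the knockdown line the difference of PRX67 was 1.36 (0.0780).

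Of 11 ascorbate peroxidases and catalases, 10 were tested and 0 passed between genotypes by limma, with a median difference of -0.05 at day 10 and -0.14 at day 16. TAPX, the thylakoid ascorbate peroxidase, had 20.8 and 22.5 RPKM in knockdown apices at day 10, against 28.9 and 34.9 RPKM in wild type, then 16.9 and 23.2 RPKM at day 16, against 30.8 and 27.4 RPKM. It lay lower without overlap at both ages, with an adjusted p of 0.686 at day 10 and 0.740 at day 16 in limma. That order was found in 9.46% of all tested genes, APX4 and CAT1 of this list among them. Of the superoxide-producing oxidases and the dismutases that remove superoxide, 9 were tested and 0 passed, 6 of them with a negative difference at day 10 (median -0.06) and 7 at day 16 (median -0.36, against -0.11 over all genes). FSD1, an iron superoxide dismutase, had the smallest p among them in the mean of both ages and lay on the positive side. It had 574 and 567 RPKM in knockdown apices at day 10, against 385 and 449 RPKM in wild type (limma adjusted p = 0.616). At day 16 it had 461 and 550 RPKM in the knockdown line, against 425 and 378 RPKM in wild type (limma adjusted p = 0.764). FSD1 lay higher without overlap at both ages, as 3.89% of all tested genes did. CSD2 and FSD2, also dismutases, lay lower without overlap at both ages, as 9.46% of all tested genes did.

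Of 20 tested genes of monolignol synthesis and laccases, 0 passed between genotypes by limma. These genes make and polymerise the phenolic units that peroxidases also couple. At day 10, 14 of the 20 had a negative difference (median -0.18, against -0.016 over all genes tested). At day 16, 11 of the 20 did (median -0.065, against -0.113). OMT1, a methyltransferase of the pathway, had 55.5 and 48.3 RPKM in knockdown apices at day 10, against 69.2 and 85.2 RPKM in wild type (limma adjusted p = 0.638). At day 16 it had 42.4 and 43.7 RPKM in the knockdown line, against 62.6 and 46.4 RPKM in wild type (limma adjusted p = 0.812). It lay lower without overlap at both ages, as 9.46% of all tested genes did, CAD4, 4CL3 and CYP98A3 of this list among them. Of 4 regulators known to act on peroxidase genes, 2 were tested, AGL15 and KUA1, and neither passed.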

How the data were processed

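The authors deposited RPKM values for 27655 loci, per the file headers (the file's name says RPM, but low values step by 1 read over exon length). Per the submitters' processing notes the build was TAIR10. Aligner, counting tool and strand setting are not known from the sources used here. Tables of changed genes, also deposited, hold the authors' fold, written as a signed score, and a p-value, per the file headers, with no test named there. Depth was estimated from the steps in low RPKM values, of which 98.8% to 99.7% lay within 0.1 of a whole read.

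Groups and replicates came from the sample titles. The test was limma 3.58.1 (R 4.3.3, intensity trend, two-sided) on log2(RPKM + 1), with all 8 libraries and a coefficient per group, over the 17467 genes that reached 1 RPKM in 2 or more libraries, and Benjamini-Hochberg adjustment over them at 0.05. The log2(RPKM + 1) scale understates changes of low genes. The fit was also run on simulated data, drawn as independent normal values with the residual spread of these libraries. Those data hold no effect shared by the genes of a library, so the run does not show how the fit handles one. Proteins were translated from RefSeq's TAIR10.1 annotation, which matched 27445 loci, and aligned with Biopython 1.88. Symbols of 3 oxidase genes did not match and were left out. The members and lists were chosen with earlier results of these data known. Members named in full are those called, with a mean of at least 5 RPKM, without overlap at both ages, in the authors' deposited tables or among the 3 nearest in sequence to PRXR1. Alternatives covered pseudocount, filter, scaling, trend, replicate block, voom, the libraries used and each library left out.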

Additional observations from a re-analysis of the deposited data

How the results depend on the processing

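PRXR1 kept its direction and its call at both ages and in their mean under all 17 or 18 alternatives, between -4.43 and -3.79 on the log2 scale, and it was the only member called between genotypes in each. Its difference between the ages passed under none of 17 alternatives (-0.07 to 0.56). The number of members called higher at day 16 in the knockdown line was 1, and 1 to 2 when a library was left out. The number called in wild type was 2, and it was 1 with pseudocount 0.5, with no intensity trend or with voom on estimated reads, 0 with no filter, median-of-ratios scaling, quantile normalization or only the libraries of the comparison, and 0 to 2 when a library was left out. With the replicate number as a block it was 4 (PRX21, PRX33, PRX34 and PRX50). The block gave -4.36 and -4.11 for PRXR1 and moved the count over all genes to 20 against 13 at day 10, 24 against 20 at day 16, 68 against 43 in the mean, 109 against 47 for age in the knockdown line and 89 against 39 in wild type. The labels do not say that a number marks a shared batch, so the numbers were not taken to pair the samples. The deviations of same-numbered libraries of the 2 genotypes correlated at 0.18 at day 10 and 0.30 at day 16. Over all 6 pairs of groups, each also of same-numbered libraries, the range was -0.24 to 0.33. These values cannot decide whether the numbers mark a batch, since the range holds no pair of differently numbered libraries as a reference. The log2 ratio of the sum of 36 relatives was -0.12 to 0.09 at day 10 and -0.33 to 0.26 at day 16 when a library was left out, and 0.31 at day 10 without PRX12. The cause of these moves was not tested. With no filter, 31 members were tested, and PRXR1 was again the only member called between genotypes at either age and in the mean. The 2 calls in wild type were PRX21 and PRX33 in place of PRX21 and PRX50 when either library of the knockdown line at day 16 was left out. Alternatives for PRX33, PRX67, PRX70 and the age difference of PRXR1 were added after seeing the data. Intervals cover the spread between these libraries only.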
